A study of Mus musculus with 6 samples.

Results

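The genes described here are the forkhead (Fox) and Sox transcription factors of the mouse, taken as all genes whose symbol is Fox followed by a letter from a to s and a number, or Sox followed by a number. On the array, 133 probe sets carried such a symbol alone, for 56 genes of the 18193 genes measured: 37 forkhead genes and 19 Sox genes. Where a gene had several probe sets, the brightest one on average gave its values, and the others served as a check. Other genes of these families were not analysed here.

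The study compared AB1, a malignant mesothelioma line from a female BALB/c mouse at passage 40, with AC29, a malignant mesothelioma line from a female CBA mouse at passage 60; both mice are labelled as 6 to 8 weeks old. Both lines grew untreated in RPMI medium with foetal calf serum to 80% confluency, and 3 flasks of each gave RNA for 1 Affymetrix array per flask. Each group is a single line, so strain, passage and line cannot be told apart, and a p-value measures the spread between flasks only. Bulk RNA also cannot separate fewer cells of a type from less RNA per cell.

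Forkhead proteins bind DNA through a winged helix domain, and the letter in the name marks a subclass. Members pattern the mesoderm (Foxc, Foxf), open chromatin in endoderm (Foxa), respond to insulin and growth factor signalling (Foxo), drive the genes of mitosis (Foxm1) or act as repressors (Foxp). Sox proteins bend DNA through a high mobility group box and are sorted into groups from B1, with Sox2 of stem cells and neural progenitors, over C, D and E to F, with the endothelial factors Sox7, Sox17 and Sox18. Mesothelium, the lining from which mesothelioma arises, comes from mesoderm.

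A total of 9 of the 56 genes differed between the lines. Foxc2, Sox2, Foxs1, Foxc1, Foxo1 and Foxp1 were higher in AB1, and Foxa2, Sox12 and Foxq1 were higher in AC29. A gene was called when limma's adjusted p, by Benjamini-Hochberg over all 18193 genes, was under 0.05 and the means differed by at least 2-fold. By family, 5 of 37 forkhead and 1 of 19 Sox genes were called higher in AB1, where 5.82% of all genes were. Likewise 2 forkhead genes and 1 Sox gene were called higher in AC29, where 5.12% of all genes were. Over both directions 16.1% of the 56 genes were called, against 10.9% of all genes. The median difference, AC29 minus AB1, was -0.025 on the log2 scale for the 56 genes and -0.0047 for all genes, and the median absolute difference was 0.119 against 0.196. Of all genes above the detection floor on at least 1 array, 16.4% were called, and of the 36 forkhead and Sox genes above it, 25%; a gene can be above the floor through the line where it is high, so both shares are descriptions. The 47 other forkhead and Sox genes were not called.

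The promoters of called members are shown here, 250 bases before to 50 bases after a RefSeq transcription start (GRCm38.p6), to set the genes that differ beside the short motifs that forkhead and Sox proteins recognise. RefSeq sequences were found for 37 of the 56 genes, and for 6 of the 9 called. Capitals mark the forkhead core TAAACA, the Sox motifs ACAAAG and AACAAT, and the TATA box TATAAA, each searched on both strands. Sox2 lies at chr3:34649745-34650044, plus strand; Foxp1, at the first listed of its 3 starts, at chr6:99520944-99521243, minus strand; Sox12 at chr2:152397997-152398296, minus strand; and Foxa2, at the one of its 3 starts that holds any of these motifs, at chr2:148045415-148045714, minus strand.
Sox2: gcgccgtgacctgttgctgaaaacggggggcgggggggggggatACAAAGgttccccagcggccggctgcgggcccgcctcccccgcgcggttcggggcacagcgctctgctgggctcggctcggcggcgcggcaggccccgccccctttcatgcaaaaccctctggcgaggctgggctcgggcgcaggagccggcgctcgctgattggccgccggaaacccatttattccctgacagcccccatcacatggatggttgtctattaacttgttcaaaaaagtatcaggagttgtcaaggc
Foxp1: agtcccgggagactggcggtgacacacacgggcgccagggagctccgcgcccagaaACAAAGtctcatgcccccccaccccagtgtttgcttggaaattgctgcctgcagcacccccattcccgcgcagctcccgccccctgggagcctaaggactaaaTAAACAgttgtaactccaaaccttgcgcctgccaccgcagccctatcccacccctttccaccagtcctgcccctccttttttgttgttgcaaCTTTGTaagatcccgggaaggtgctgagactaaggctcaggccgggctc
Sox12: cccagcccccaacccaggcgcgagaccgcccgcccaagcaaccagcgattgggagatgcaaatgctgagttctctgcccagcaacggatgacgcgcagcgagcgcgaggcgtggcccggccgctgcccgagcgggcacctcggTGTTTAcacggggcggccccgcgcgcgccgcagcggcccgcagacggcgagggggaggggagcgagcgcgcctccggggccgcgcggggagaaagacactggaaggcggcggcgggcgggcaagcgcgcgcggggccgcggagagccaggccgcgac
Foxa2: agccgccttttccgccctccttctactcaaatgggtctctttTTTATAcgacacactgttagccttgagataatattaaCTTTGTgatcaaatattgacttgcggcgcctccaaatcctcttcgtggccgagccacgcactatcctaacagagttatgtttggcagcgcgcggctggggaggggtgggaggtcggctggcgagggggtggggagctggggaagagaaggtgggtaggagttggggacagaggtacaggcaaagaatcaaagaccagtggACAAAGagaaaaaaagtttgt

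The Sox2 window holds 1 Sox motif, that of Foxp1 1 forkhead core and 2 Sox motifs, that of Sox12 1 forkhead core, and that of Foxa2 2 Sox motifs and 1 TATA box. Of the Foxp1 windows not printed, that at start 2 holds 2 forkhead cores and 2 Sox motifs, and that at start 3 holds 1 forkhead core. The tallies for Foxp1 and Foxa2 thus depend on the start chosen. The single windows of Foxc1 and Foxo1 hold none of the motifs. Over all 32851 promoter windows of the same length, 13.4% hold the forkhead core, 18.7% ACAAAG, 10.7% AACAAT and 13.6% the TATA box. Of the 47 windows of the 37 matched forkhead and Sox genes, 14.9%, 31.9%, 4.26% and 10.6% do. These windows are rich in CpG dinucleotides, with a median of 21 against 7 over all windows, and 37 of the 47 lie above that overall median. The 4 printed windows hold 27, 13, 47 and 13 CpG dinucleotides in the order shown. A motif match describes letters only and says nothing of binding.

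The arrays of a line were close to each other, with Pearson's r across genes of 0.995 to 0.998 within a line and 0.937 to 0.938 between the lines. AC29 replicate 14 stood apart on the second principal component (2.86% of the variance), with a score of 20.3 against -10.4 to 2.47 on the other arrays. The same counts of called forkhead and Sox genes were found without it. A floor of 6.07 on the log2 scale was set at the 95th percentile of 86 probe sets for olfactory, vomeronasal and taste receptors, and a fold against a line with no array above it is a lower bound. Of 8 mesothelial markers, 6 were called higher in AC29, or 75% against 10.9% of all genes called in either direction. Wt1, Upk1b, Upk3b, Lrrn4 and Bnc1 were not above the floor in AB1, while Msln read 9.67 in AB1 and 10.41 in AC29. Of 8 macrophage markers, Ptprc, Itgam, Adgre1 and Fcgr1 were at or under the floor in both lines, while Cd14 was called 3.39-fold higher in AB1, Cd68 (6.68 in AB1 and 6.03 in AC29) was above the floor in AB1 alone, Lyz2 in AC29 alone, and Csf1r in both. Their summed level, as log2 of the summed intensities, was 9.75 to 9.82 in AB1 and 8.88 to 8.998 in AC29. Of 7 lymphocyte markers, Cd3d, Cd79a, Cd79b and Ms4a1 were at or under the floor in both lines, while Cd3e, Cd4 and Cd8a were above it on all 6 arrays and were not called. Their summed level was 8.63 to 8.76 in AB1 and 8.76 to 8.87 in AC29. The part of these markers in the results was not tested.

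**Figure D1:**
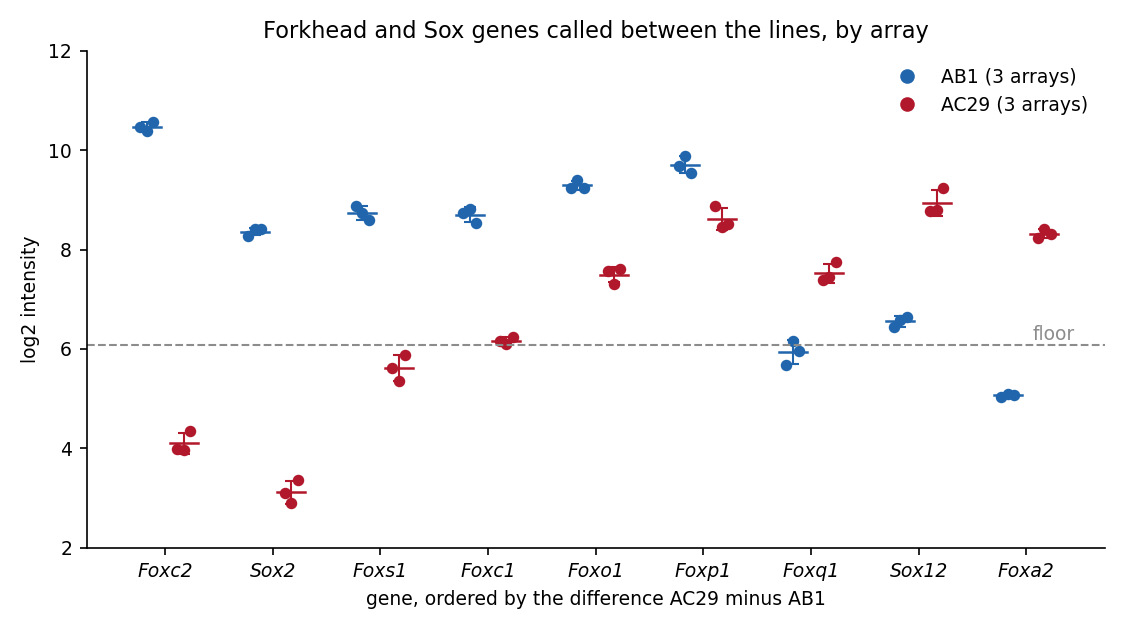
Log2 intensity (y axis) of the 9 called genes (x axis) on each array, AB1 in blue and AC29 in red, with horizontal lines for means, bars for the SD of 3 arrays and a dashed line for the floor of 6.07. The arrays of the lines do not overlap for any of the 9, and Foxc2, Sox2 and Foxs1 lie under the floor in AC29, as Foxa2 does in AB1.

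Foxc2 differed most among the 56 genes. It encodes a forkhead factor of mesenchyme and of lymphatic vessels. Its log2 intensity was 10.47, 10.38 and 10.56 on the AB1 arrays and 3.99, 3.97 and 4.35 on the AC29 arrays. All AB1 arrays were far above the floor and all AC29 arrays under it, so Foxc2 was at least 21.1-fold higher in AB1 (limma adjusted p = 7.29e-10). The fitted difference, AC29 minus AB1, was -6.37 with a standard error of 0.117, and its size rests on AC29 values under the floor.

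Foxc1, the closest relative of Foxc2 and a factor of head mesenchyme and somites, moved the same way. It read 8.74, 8.83 and 8.53 in AB1 and 6.15, 6.09 and 6.25 in AC29. The AC29 values lay just above the floor. The difference was -2.53 (standard error 0.100, limma adjusted p = 7.19e-08), a 5.79-fold higher level in AB1. Its other probe set read 8.02 in AB1 and 5.04, under the floor, in AC29, at least 3.84-fold higher in AB1. Both Foxc genes were thus called in the same direction, each by every probe set the array holds for it.

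Foxs1, a forkhead gene known from neural crest derivatives and the cells around blood vessels, read 8.87, 8.73 and 8.60 in AB1 and 5.62, 5.36 and 5.87 in AC29. No AC29 array exceeded the floor, and the gene was at least 6.33-fold higher in AB1 (difference -3.12, standard error 0.136, limma adjusted p = 1.44e-07). Foxc2 and Foxs1 were each measured by a single probe set, as were Sox2 and Foxa2.

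Sox2, the pluripotency and neural progenitor factor, was present in AB1 and under the floor in AC29. It read 8.27, 8.41 and 8.41 in AB1 and 3.10, 2.90 and 3.36 in AC29. This makes it at least 4.89-fold higher in AB1 (difference -5.24, standard error 0.121, limma adjusted p = 2.62e-09). Its relatives of group B1 were not called. Sox3 read 6.39 in AB1 and 6.38 in AC29, near the floor (difference -0.01, 95% interval -0.21 to 0.19), and Sox1 was at or under the floor in both lines. Of 10 genes that act with SOX2 in pluripotent cells, limma called 0 in either direction, with 2 higher in AC29 and 0 higher in AB1 at an unadjusted p under 0.05. Pou5f1, Nanog, Lin28a, Sall4, Tdgf1 and Zfp42 were at or under the floor in both lines. Klf4, which is also expressed in many differentiated cells, read 11.68 in AB1 and 11.46 in AC29, and Utf1 read 6.78 and 6.66. AB1 thus held Sox2 signal, while 6 of these 10 partners were without signal above the floor in either line. A further 1 was above the floor on all AC29 arrays and on no AB1 array.

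Foxo1, a target of AKT that leaves the nucleus when insulin and growth factors signal, was the one called Foxo gene. It read 9.23, 9.40 and 9.24 in AB1 and 7.57, 7.32 and 7.60 in AC29. All values were above the floor and the lines did not overlap, giving a 3.47-fold higher level in AB1 (difference -1.80, standard error 0.104, limma adjusted p = 9.94e-07). A pair of its other probe sets gave -1.70 and -1.52, and the remaining one, at 5.85 in AB1 and 6.02 in AC29, gave 0.17 and was not called; on the mean of all its probe sets the difference was -1.21. Foxo3 read 7.63 in AB1 and 7.65 in AC29 (difference 0.02, 95% interval -0.18 to 0.22). Foxo4 read 7.31 and 7.33 (difference 0.02, 95% interval -0.22 to 0.26).

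The genes around FOXO signalling that passed the rule were all on the AB1 side. Of 14 measured genes that control FOXO through PI3K and AKT, 4 were called higher in AB1 and, by limma, 0 higher in AC29, with 8 and 2 at an unadjusted p under 0.05. Their median difference was -0.355, and 28.6% were called, against 10.9% of all genes. All 14 were above the floor on at least 1 array, and of all such genes 16.4% were called. The lists were chosen with earlier results of these data known, so such shares are descriptions. The receptor of insulin-like growth factors, Igf1r, was 4.58-fold higher in AB1 (9.97 ± 0.27 against 7.77 ± 0.05, SD, n = 3). The adaptor Irs1, which links these receptors to PI3K, was 3.77-fold higher (10.16 ± 0.11 against 8.24 ± 0.21). Sgk1, a kinase that phosphorylates FOXO proteins, was 3.50-fold higher (11.91 ± 0.14 against 10.11 ± 0.16). The fourth, named beyond the naming rule once its values were seen, was the insulin receptor Insr, at least 2.68-fold higher. The 14-3-3 proteins Ywhae (13.23 in AB1 and 13.32 in AC29) and Ywhaz (12.83 and 12.84), which hold phosphorylated FOXO in the cytoplasm, were not called.

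Of 21 measured FOXO target genes, 6 were called higher in AB1 and, by limma, 0 higher in AC29, with 9 and 3 at an unadjusted p under 0.05; the median difference of the list was -0.012. By the fitted difference, the first were the stress response gene Gadd45a, 4.72-fold (10.31 ± 0.15 in AB1 against 8.07 ± 0.07 in AC29, SD, n = 3), Ccng2, which encodes cyclin G2, 2.48-fold (8.25 ± 0.23 against 6.94 ± 0.11), and the sphingosine phosphate receptor S1pr1, at least 1.92-fold (7.02 ± 0.19 against 5.79 ± 0.28, under the floor). The bound of S1pr1 is below the measured folds of the remaining called genes, Bcl6 (2.21), Bnip3 (2.14) and Bcl2l11 (2.07), which are named beyond the naming rule. Gadd45a is also a p53 target, and p53 target genes were not separated from FOXO targets here. The coactivator Cited2 (11.36 in AB1 and 11.40 in AC29) and the mitochondrial dismutase Sod2 (10.36 and 11.34) were not called. Of the 21 genes, 11 had an adjusted p under 0.05 in limma, 9 higher in AB1 and 2 higher in AC29, and the median absolute difference was 0.39 against 0.196 for all genes. The share called was 28.6%, against 10.9% of all genes and 16.4% of all genes above the floor on at least 1 array, as 18 of the 21 were.

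**Figure D2:**
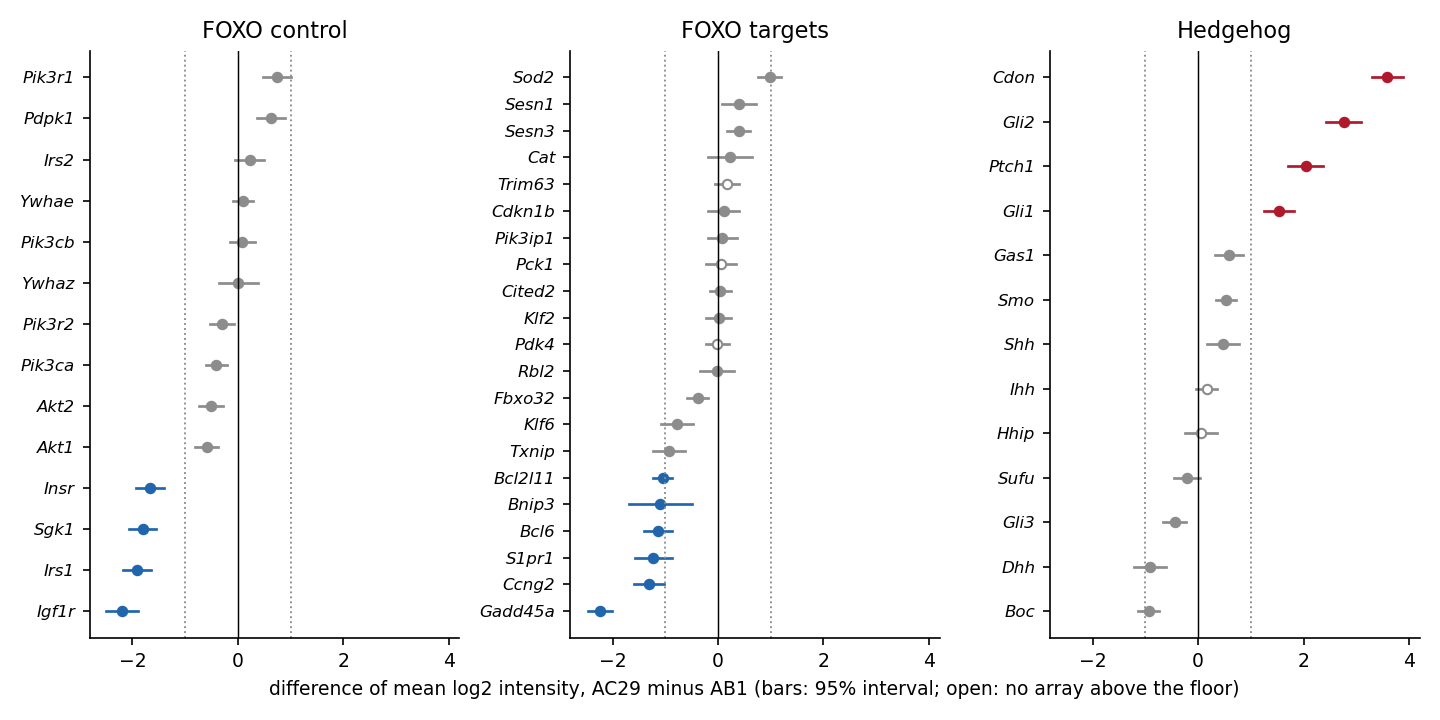
Difference of mean log2 intensity, AC29 minus AB1 (x axis), of the genes of the FOXO control, FOXO target and hedgehog lists (y axis), with 95% intervals from limma; blue marks genes called higher in AB1, red those called higher in AC29, grey those not called, and open circles genes with no array above the floor. The called genes of the FOXO lists, 4 and 6, all lie left of -1, and the 4 called hedgehog genes right of 1.

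Foxp1, a repressor with roles in lymphocytes, heart and lung, was higher in AB1 by an amount close to the 2-fold minimum. It read 9.68, 9.88 and 9.54 in AB1 and 8.88, 8.46 and 8.52 in AC29. The groups did not overlap, and the level was 2.12-fold higher in AB1 (difference -1.09, standard error 0.134, limma adjusted p = 0.00016). Without AB1 replicate 5 the difference was -0.994 and under the minimum. Of its 8 probe sets, 6 were above the floor and all 6 differed in this direction, from -1.09 to -0.61, each with an adjusted p under 0.05 over all probe sets, and 2 of them passed the 2-fold minimum. Foxp4 read 8.04 in AB1 and 8.25 in AC29 (difference 0.21, 95% interval -0.05 to 0.46) and was not called, although another of its probe sets gave -0.45. Foxp2, of the brain, and Foxp3, of regulatory T cells, were at or under the floor in both lines.

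Foxa2, a factor that opens chromatin in endoderm and its organs, was above the floor in AC29 only. It read 8.23, 8.42 and 8.32 in AC29 and 5.03, 5.09 and 5.08 in AB1. The gene was at least 4.76-fold higher in AC29 (difference 3.26, standard error 0.085, limma adjusted p = 5.59e-09). Foxa1 and Foxa3 were at or under the floor in both lines. Of 10 measured endoderm and liver genes, 1 was called higher in AC29 and, by limma, 0 higher in AB1, with 1 in each direction at an unadjusted p under 0.05. The share called was 10%, against 10.9% of all genes. The called gene was Gata6, a zinc finger factor of endoderm that is also expressed in mesoderm, at 10.82 ± 0.27 in AC29 and 9.03 ± 0.03 in AB1 (SD, n = 3), a 3.45-fold difference. Alb, Apob, Cdx2 and Tff3 were at or under the floor in both lines, and Afp (6.98 in AB1 and 7.38 in AC29) and Hnf4a (6.96 and 6.86) were not called.

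Sox12 was the called Sox gene on the AC29 side. It belongs to group C with Sox4 and Sox11, which act in progenitor cells and in the developing nervous system and mesenchyme. It read 8.78, 8.79 and 9.23 in AC29 and 6.44, 6.58 and 6.65 in AB1. The lines did not overlap, and the level was 5.18-fold higher in AC29 (difference 2.37, standard error 0.132, limma adjusted p = 7.65e-07). On the mean of its probe sets the difference was 1.28. Another probe set read 6.83 in AC29 and 5.41, under the floor, in AB1, at least 1.69-fold higher in AC29, and its remaining probe set was at or under the floor in both lines.

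Sox4 was well above the floor in both lines. It read 11.93, 11.95 and 11.97 in AB1 and 12.03, 11.55 and 11.69 in AC29, so that the groups overlapped. Its difference was -0.19 (95% interval -0.47 to 0.08), and 6 probe sets above the floor ran from -0.19 to 0.01, none with an adjusted p under 0.05. Sox11 was at or under the floor in both lines, so group C held a gene shared by the lines, a gene that differed and a gene without signal.

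Foxq1, a forkhead gene of epithelia and hair follicles, read 7.38, 7.44 and 7.74 in AC29 and 5.68, 6.16 and 5.95 in AB1. Of the AB1 arrays 1 was above the floor. The level was 3.01-fold higher in AC29 (difference 1.59, standard error 0.141, limma adjusted p = 1.79e-05), and the other probe set, under the floor in AB1, read 3.43 in AB1 and 6.25 in AC29, a bound of at least 1.13-fold. Of 8 epithelial markers, 5 were called higher in AC29, or 62.5% against 10.9% of all genes called in either direction. The called markers were Krt8, Krt19, Krt7, Krt18 and Cdh1. Cdh1 was under the floor throughout, as were Cldn4 and Esrp1. The summed level of the 8 epithelial markers, as log2 of the summed intensities, was 12.36 to 12.58 in AB1 and 14.57 to 14.74 in AC29. That of the mesothelial markers was 10.62 to 10.76 and 14.08 to 14.23. Of 8 fibroblast markers, 3 were called higher in AC29 and 1 higher in AB1 (50%, against 10.9% of all genes). Their summed level was 13.88 to 13.91 in AB1 and 14.86 to 15.11 in AC29. The part of these markers in the Foxq1, Foxa2 and Sox12 values was not tested.

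**Figure D3:**
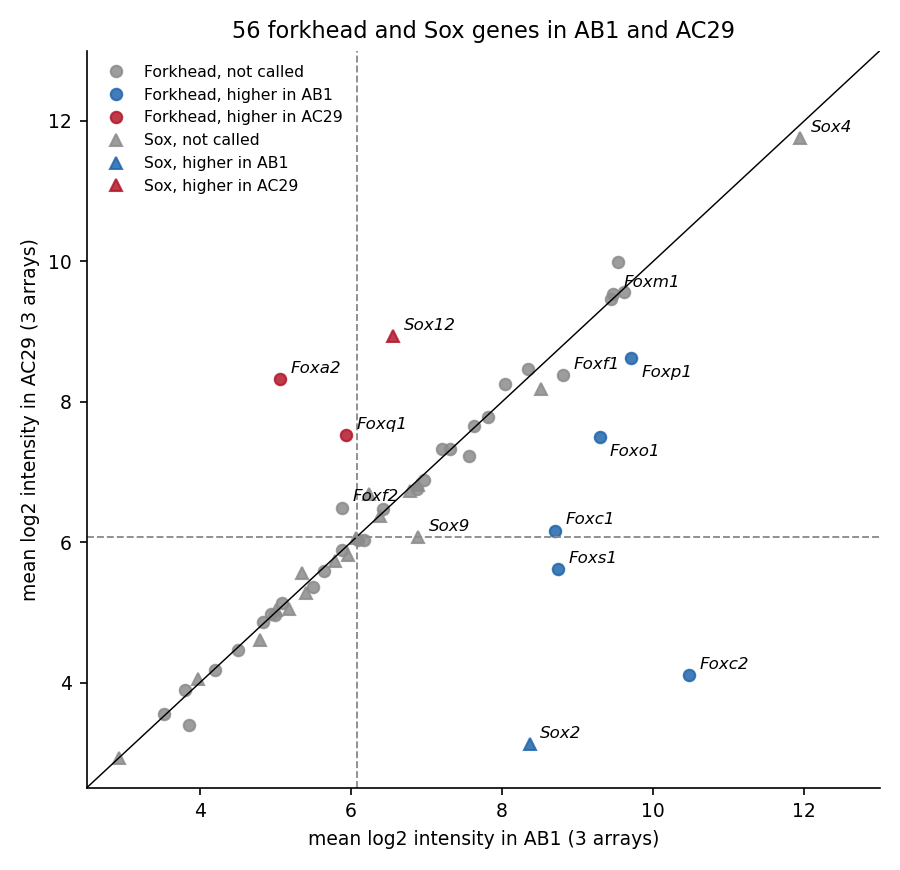
Mean log2 intensity in AB1 (x axis) and AC29 (y axis) of the 56 genes, circles for forkhead and triangles for Sox genes, blue where called higher in AB1, red where called higher in AC29 and grey where not called; the solid line marks equal means and the dashed lines the floor of 6.07. Most genes lie close to the solid line, with Foxc2 (10.47 and 4.11) and Sox2 (8.36 and 3.12) far to its right and Foxa2 (5.07 and 8.32) above it.

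A further 8 genes had an adjusted p under 0.05 in limma and less than a 2-fold difference, so that 17 of the 56 passed on p alone, against 39.1% of all genes. Sox9, the master factor of cartilage and of many progenitors, was nearest to the minimum. It read 6.89, 6.94 and 6.83 in AB1 and 5.85, 6.29 and 6.06 in AC29, without overlap (difference -0.82, standard error 0.116, limma adjusted p = 0.000372). Of the AC29 arrays 1 was above the floor, so the size of the difference rests in part on values at background. The other Sox9 probe sets were under the floor in both lines, and the mean of its probe sets gave -0.55. Of 14 measured genes that SOX9, SOX5 and SOX6 switch on in cartilage, limma called 0 in either direction, with 4 higher in AC29 and 0 higher in AB1 at an unadjusted p under 0.05, and 9 were at or under the floor in both lines. Sox5, of group D, went the other way, at 6.23, 6.16 and 6.33 in AB1 and 6.53, 6.72 and 6.82 in AC29 (difference 0.45, limma adjusted p = 0.0053), but on the mean of its probe sets the difference was 0.15 (limma adjusted p = 0.141). Its group D relatives Sox6 and Sox13 were at or under the floor in both lines.

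Sox21, a repressor of group B2, read 8.52 ± 0.10 in AB1 and 8.18 ± 0.11 in AC29 (SD, n = 3; difference -0.34, limma adjusted p = 0.0171). Its limma adjusted p was 0.0539 to 0.0745 without AB1 replicate 4 or 5 or AC29 replicate 13 or 15, and 0.1 on the mean of its probe sets. Foxj3, a factor known from muscle and testis, read 9.47, 9.64 and 9.51 in AB1 and 10.06, 9.94 and 9.99 in AC29, without overlap (limma adjusted p = 0.00215), and a second probe set differed by 0.49 beside the 0.46 of the first; the mean of all 3, with the third under the floor, gave 0.29. Foxn3, a repressor tied to cell cycle checkpoints, read 7.56 ± 0.13 in AB1 and 7.23 ± 0.14 in AC29 (limma adjusted p = 0.0315). Its limma adjusted p was 0.0537 to 0.115 without AB1 replicate 4 or 5 or AC29 replicate 14 or 15. Its other probe sets differed by -0.40, -0.30 and -0.03 and none of them had an adjusted p under 0.05. Foxd1 had a difference of -0.47 but was at or under the floor in both lines.

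Foxf1 and Foxf2, factors of lateral mesoderm and gut mesenchyme that hedgehog signals induce, differed in opposite directions by less than the minimum. Foxf1 was above the floor in both lines and Foxf2 in AC29 only. Foxf1 read 8.84, 8.82 and 8.78 in AB1 and 8.40, 8.17 and 8.57 in AC29 (difference -0.43, limma adjusted p = 0.0108). Its other probe set gave -0.21 (limma adjusted p = 0.146 over all probe sets). Foxf2 read 5.82, 5.99 and 5.82 in AB1, under the floor, and 6.55, 6.30 and 6.63 in AC29 (difference 0.61, limma adjusted p = 0.00146). The other Foxf2 probe set, under the floor in both lines, gave -0.145, and the mean of its probe sets gave 0.23. Foxl1, another hedgehog target of gut mesenchyme, lay at the floor (6.10 in AB1 and 6.02 in AC29).

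Hedgehog genes were on the AC29 side where they passed the rule. Of 13 measured genes, 4 were called higher in AC29 and, by limma, 0 higher in AB1, with 7 and 3 at an unadjusted p under 0.05 and a median difference of 0.471. The share called was 30.8%, against 10.9% of all genes and 16.4% of all genes above the floor on at least 1 array, as 11 of the 13 were. The coreceptor Cdon was 12.01-fold higher (10.06 ± 0.24 in AC29 against 6.47 ± 0.14 in AB1, SD, n = 3). The effector Gli2 was at least 5.18-fold higher (8.45 ± 0.32 against 5.69 ± 0.09). The receptor Ptch1, itself a hedgehog target, was 4.10-fold higher (10.51 ± 0.30 against 8.47 ± 0.15). The fourth, named beyond the naming rule once its values were seen, was the target and effector Gli1, 2.89-fold higher. The coreceptor Gas1 (11.17 in AB1 and 11.76 in AC29) and the transducer Smo (9.73 and 10.26) were not called. Among forkhead genes placed downstream of hedgehog signals, Foxa2 was called higher in AC29, and Foxc1 and Foxc2 were called higher in AB1. Foxf2 (difference 0.61), Foxf1 (-0.43) and Foxl1 (-0.07) were not called.

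**Figure D4:**
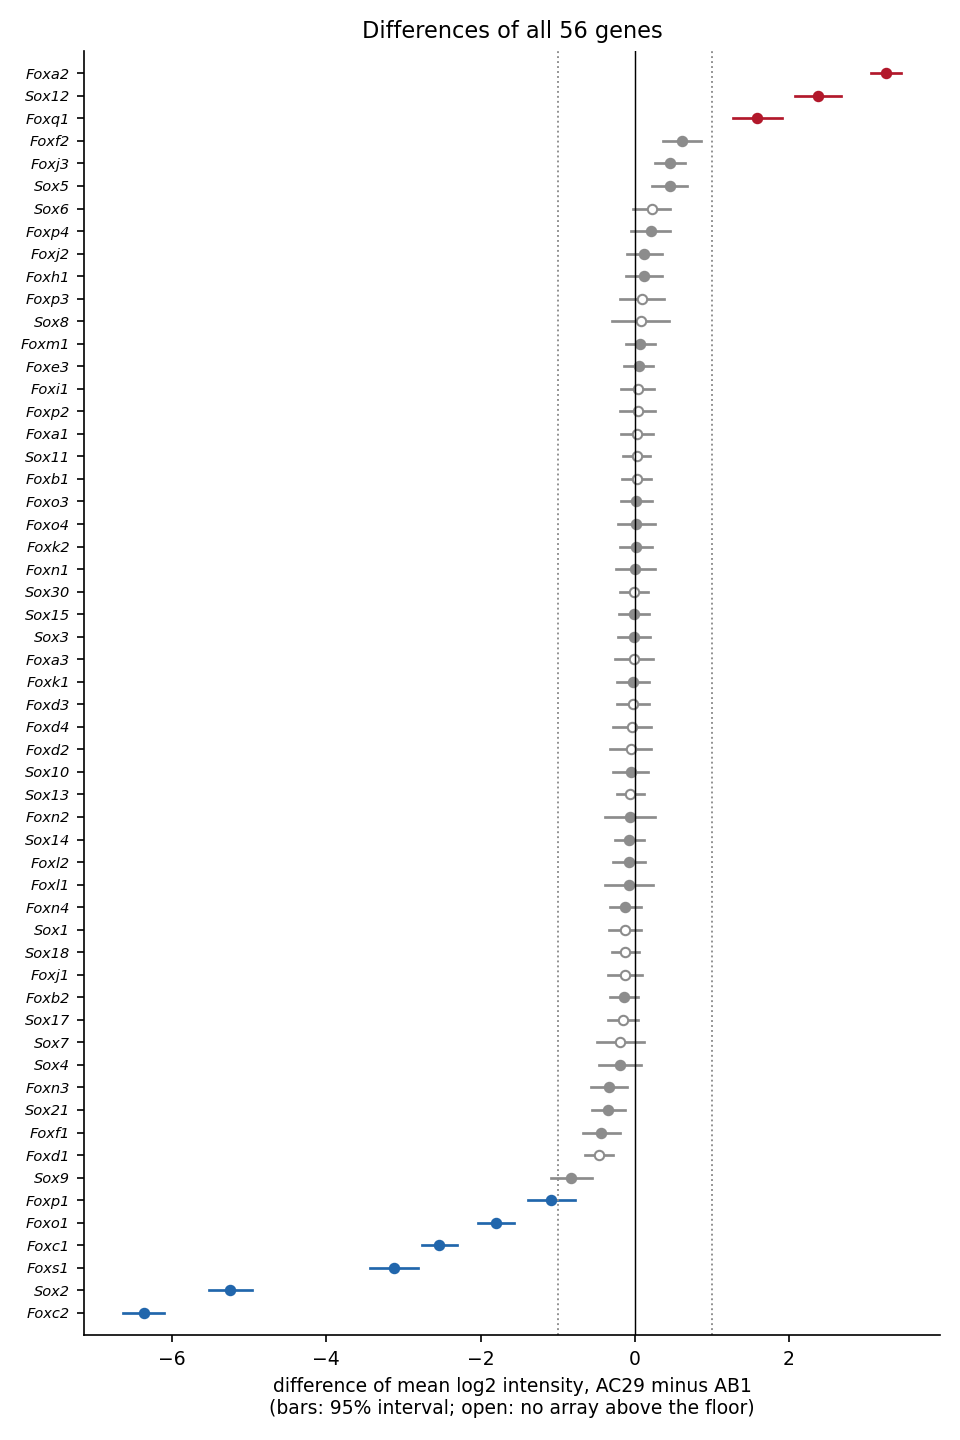
Difference of mean log2 intensity, AC29 minus AB1 (x axis), of all 56 genes (y axis, ordered by the difference), with 95% intervals from limma; blue and red mark genes called higher in AB1 and in AC29, open circles genes with no array above the floor, and dotted lines a 2-fold difference. From Foxc2 at -6.37 to Foxa2 at 3.26, 9 genes lie outside the dotted lines and 47 between them.

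Foxm1, the driver of mitotic gene expression, was not called. It read 9.45, 9.53 and 9.43 in AB1 and 9.50, 9.51 and 9.61 in AC29 (difference 0.07, 95% interval -0.11 to 0.26). Of 21 measured FOXM1 targets and partners, 1 was called, Cenpf, a kinetochore protein, at 9.47 ± 0.14 in AB1 and 7.78 ± 0.10 in AC29 (SD, n = 3), a 3.22-fold difference. The share called was 4.76%, against 10.9% of all genes. By limma 0 were called higher in AC29, with 10 higher there and 3 higher in AB1 at an unadjusted p under 0.05. Cdc20, an activator of the anaphase promoting complex, read 12.29 in AB1 and 12.83 in AC29, and Cks2 read 11.89 and 12.18.

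In all, 20 genes were above the floor on at least 1 array and had an adjusted p of 0.203 or more. They are Foxb2, Foxe3, Foxh1, Foxj2, Foxk1, Foxk2, Foxl1, Foxl2, Foxm1, Foxn1, Foxn2, Foxn4, Foxo3, Foxo4, Foxp4, Sox3, Sox4, Sox10, Sox14 and Sox15. None differed by more than 0.21, and no bound of their 95% intervals exceeded 0.47 in size, so a 2-fold difference lay outside each interval for these probe sets. Among them Foxk1 (7.81 in AB1 and 7.78 in AC29) and Foxk2 (9.45 and 9.46), regulators of glycolysis and autophagy genes, Foxj2 (8.34 and 8.46) and Foxn2 (9.62 and 9.56) were well above the floor. Others lay near the floor, such as Foxn1 (5.88 in AB1 and 5.88 in AC29), Sox15 (6.07 and 6.06) and Foxl1. For these a narrow interval cannot exclude a 2-fold difference in RNA, because values near background can understate it.

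A further 20 genes were at or under the floor on all 6 arrays, with values from 2.88 to 6.05. They are Foxa1, Foxa3, Foxb1, Foxd1, Foxd2, Foxd3, Foxd4, Foxi1, Foxj1, Foxp2, Foxp3, Sox1, Sox6, Sox7, Sox8, Sox11, Sox13, Sox17, Sox18 and Sox30. Above the floor on all 3 arrays of a line were 30 genes in AB1 and 28 in AC29, and 25 of these were shared. Over all genes 11647 of 18193 were above it on at least 1 array, or 64%, and 36 of the 56 genes were. AB1 and AC29 arrays did not overlap for 20 of the 56 genes (35.7%), against 50.1% of all genes.

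The endothelial group F (Sox7, Sox17, Sox18) was not above the floor, nor were 7 of 10 endothelial genes, among them Pecam1, Cdh5 and Tie1. Esam, an adhesion molecule of endothelium and some epithelia, was called higher in AC29 (10.59 ± 0.31 against 6.17 ± 0.14 in AB1, SD, n = 3). In group E, Sox8 was not above the floor and Sox10, of neural crest, read 6.78 in AB1 and 6.72 in AC29. Of 13 neural crest and glial genes, 7 were not above the floor, Mitf, the pigment cell factor, was 3.93-fold higher in AB1, and Mbp, known from myelin, was at least 8.28-fold higher in AC29. Foxj1, the factor of motile cilia, was not above the floor, and neither were 8 of 11 motile cilium genes; Rfx2 was at least 1.72-fold higher in AC29.

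Of 11 measured TCF/LEF and Groucho genes, 1 was called (9.09%, against 10.9% of all genes), the corepressor Tle4, at least 1.42-fold higher in AB1 (6.58 ± 0.23 against 4.11 ± 0.37, SD, n = 3). By limma 0 were called higher in AC29, with 2 higher there and 4 higher in AB1 at an unadjusted p under 0.05. Ctnnb1, which encodes beta-catenin, read 12.38 in AB1 and 13.13 in AC29, and Tle5 read 10.43 and 10.04. Of 8 measured genes tied to FOXC factors, 4 were at or under the floor in both lines. By limma 0 of the 8 were called in either direction, or 0% against 10.9% of all genes. At an unadjusted p under 0.05 in limma, 2 differed in each direction. Of this list, Itgb3, an integrin chain, read 7.65 in AB1 and 8.38 in AC29. Prkar1a, a regulatory subunit of protein kinase A, read 12.06 and 12.50. Angpt2, named beyond the naming rule, had the largest difference of the list, -0.97. It read 6.52 in AB1 and 5.55, under the floor, in AC29.

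**Figure D5:**
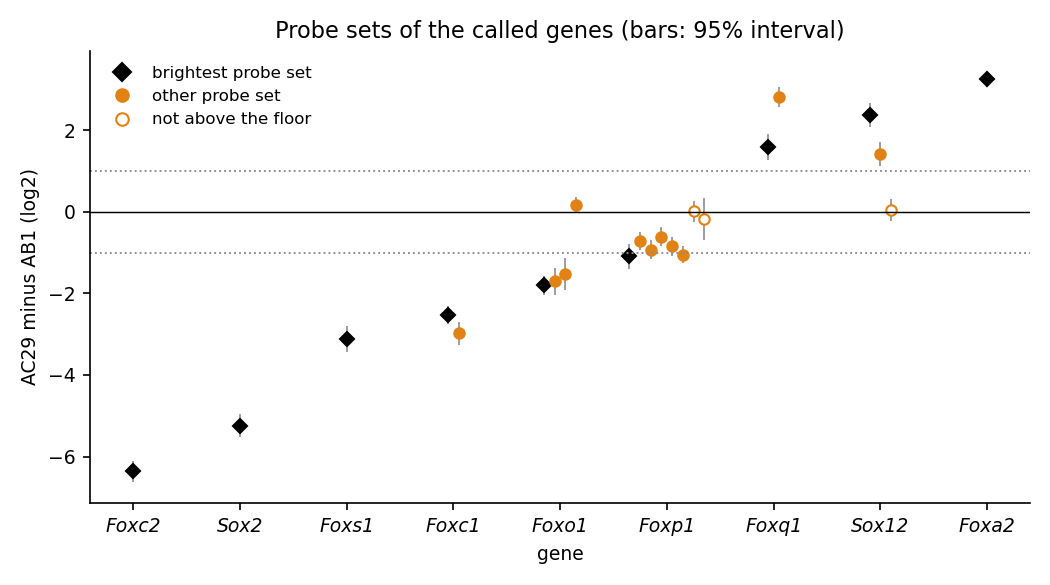
Difference AC29 minus AB1 on the log2 scale (y axis) of every probe set of the 9 called genes (x axis), with 95% intervals; black diamonds are the brightest probe sets, orange circles the others, open where no array exceeded the floor. Of 11 other probe sets above the floor, 10 share the sign of the brightest and 6 pass the call rule, with Foxo1 at 0.17 as the exception in sign.

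Several of these genes neighbour each other in the genome, and neighbours differed. In the order of GRCm38.p6, with genes not measured here left out, chromosome 13 holds Foxq1, 1700018A04Rik, Foxf2, Foxc1 and Gmds in a row. Foxq1 was called higher in AC29 and Foxf2 had a difference of 0.61, while Foxc1 was called higher in AB1. Gmds, an enzyme of fucose synthesis next to Foxc1, was 2.54-fold higher in AB1, and 1700018A04Rik was not above the floor. On chromosome 8, Fendrr, Foxf1, Mthfsd, Foxc2 and Foxl1 follow each other. There Foxc2 was under the floor in AC29, while Foxf1 and the folate enzyme Mthfsd (8.03 in AB1 and 7.90 in AC29) on one side were detected in both lines, and the noncoding Fendrr read 6.70 and 6.71.

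The 3 nearest measured genes on each side of every called member, a choice made after the values were seen, gave 47 genes that are no forkhead or Sox gene. Of these 47, 4 were called higher in AC29 and 6 higher in AB1. Over all genes 5.12% were called higher in AC29 and 5.82% higher in AB1. Around Foxp1 on chromosome 6, Mitf and Eif4e3 (at least 1.17-fold) were called higher in AB1, and Frmd4b, a scaffold protein gene beyond Mitf, was at least 36.5-fold higher in AC29. Next to Sox12 on chromosome 2, Zcchc3, a nucleic acid binding protein, was at least 9.01-fold higher in AC29. To the other side of Sox12, beyond Nrsn2, the pseudokinase gene Trib3 was 2.88-fold higher in AB1. Near Foxa2, also on chromosome 2, Thbd, which encodes thrombomodulin, was at least 7.69-fold higher in AB1. Around Foxo1 on chromosome 3, the glutathione transferase Mgst2 was 3.83-fold and the methyltransferase Setd7 2.00-fold higher in AC29. Beside Foxq1 on chromosome 13, the exocyst gene Exoc2 was 2.09-fold higher in AB1. Next to Sox2, Atp11b read 8.84 in AB1 and 8.80 in AC29 and Fxr1 read 10.64 and 10.88, and neither was called.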

How the data were processed

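RNA from 3 flasks of each line was hybridised as biotinylated cRNA, per the labels' protocols. The authors deposited log2 intensities for 45101 probe sets. The submitters' processing notes list GCOS, RMA and Partek 6.4 without saying what each did, and the log2 scale was read from the range of the values. RMA can understate differences of dim genes. The number of arrays limits the precision.

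Here limma 3.58.1 (R 4.3.3, lmFit, then eBayes) was run on every probe set outside 64 controls, with line as the term. Of these, 34945 had 1 gene symbol in the platform annotation, and 932 had several and were not named. All 56 members matched RefSeq by Entrez identifier. Called genes passed both thresholds given in the report. Every member could be named, and from each other list at most 3 called genes a direction by size and the 2 brightest uncalled. Members and lists were chosen with earlier results of these data known. Alternatives changed the normalization, filters, probe set rule, test, thresholds and arrays. On simulated data for this comparison with 18193 genes, 50%, 94%, 98% and 100% of 50 genes were called at log2 changes of 1, 1.5, 2 and 4, with 0 false calls. Unchanged genes there had equal means and the spread between flasks, so the 2-fold minimum left little room for false calls. The share at a change of 1 likewise follows from a minimum of that size. The simulation checks the code and cannot measure error beyond the spread between flasks.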

Additional observations from a re-analysis of the deposited data

How the results depend on the processing

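The differences of the 9 called genes kept their direction under the 17 alternatives tried, 16 for Sox2, in 152 fits in all, and their calls held in 149 of them. The exceptions were all Foxp1: -0.671 on the mean of its probe sets, -0.994 without AB1 replicate 5, and not past limma's treat against a 2-fold difference (adjusted p = 1; over the alternatives its adjusted p was otherwise at most 0.00111). Sox2 dropped out where genes were kept by a mean above the floor, which left 0 Sox genes called higher in AB1, because its mean over both lines is under the floor. Among the 8 genes with an adjusted p under 0.05 and less than a 2-fold difference, Sox21, Foxn3 and Sox5 lost it, apart from treat, under the alternatives given beside their values. With no minimum difference 7105 genes were called, with 4 forkhead and 2 Sox genes higher in AC29 and 8 forkhead and 3 Sox genes higher in AB1; treat called 1237 of all genes. Leaving out each array in turn gave 1990 to 2029 called genes, 4 to 5 forkhead genes higher in AB1, 2 higher in AC29 and 1 Sox gene in each direction. Above the floor on all arrays of a line were 36 genes in AB1 and 35 in AC29 with the floor at its 90th percentile, and 19 and 16 at its 99th. No paired analysis was possible because the replicate numbers of the lines are not shared.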

Other observations

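Some probe sets read transcripts beside these genes, or a forkhead gene together with other genes, and gave no value above. Sox2ot, the noncoding RNA that overlaps Sox2, stayed under the floor on all arrays (3.16 ± 0.10 and 3.15 ± 0.05 in AB1 and AC29, SD, n = 3), while Sox2 itself was above it in AB1. Foxl2os and Sox6os were not above the floor either, at 4.17 and 4.06 and at 4.92 and 5.04. A probe set annotated to Foxm1 together with Tex52 and Pebp1 read 9.44 ± 0.10 in AB1 and 9.41 ± 0.13 in AC29, and one annotated to Foxo3 and Gm38485 read 6.02 ± 0.11 and 6.27 ± 0.17.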
